A study of Rattus norvegicus with 6 samples.

Results

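The Notch genes examined here were the receptors Notch1, Notch2, Notch3 and Notch4, the ligands Dll1, Dll4, Jag1 and Jag2, and the target genes Hey1 and Hey2. They were chosen by name: every non-control probe of the array whose gene name was one of these symbols was taken, which gave 14 of the 30367 probes, for 10 of the 17468 named genes. RNA came from the heart primordium of Wistar rat embryos at embryonic day 10, dissected whole, without separating the first from the second heart field. The pre-heartbeat primordia had a flat central shape and the post-heartbeat primordia a raised one. The paper defined the groups by this shape and by somite number, relying only on earlier ex vivo work. Developmental stage and the start of the heartbeat therefore cannot be told apart here. No transgene or drug is named for either group, and 3 biological replicates per group were hybridised, 1 to each 1-colour array. The sources do not say whether embryos were pooled for a replicate, so the p-values below measure the spread between these 6 samples.

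Notch receptors are read out by contact between neighbouring cells: a Delta or Jagged ligand on one cell pulls on the receptor of the next, proteases release the receptor's intracellular part, and this part joins the DNA-binding protein RBPJ in the nucleus. Hey1 and Hey2, transcriptional repressors of the basic helix-loop-helix class, are among the genes switched on this way. In the developing heart the pathway is known from the endocardium, the inner endothelial lining, where Notch1, Notch4, Dll4 and Jag1 are at work, and from the myocardium, where Hey1 marks atrial and Hey2 ventricular muscle.

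The arrays report each gene through probes of 60 bases. The probes below are shown because the results turn on the pairs of probes of Notch1, Jag2 and Hey2 and on the only probe of Hey1. All letters are in lower case, since no base within them is singled out, and some probes are shown by their opening bases only. Positions are those of the array's own annotation, on the rat build rn4, and the start is the base of the target transcript at which the probe begins. The Jag2 probes lie closer together on the genome than their starts do, so their starts may be counted on different transcripts, and whether they read the same transcripts is not known.

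Notch1, start 7022, chr3:4634122-4634181, minus strand: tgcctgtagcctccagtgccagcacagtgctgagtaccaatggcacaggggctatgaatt
Notch1, start 9315, chr3:4631829-4631888, minus strand, opening bases only: cgctatacctaatagatatgaccagacaca
Jag2, start 3465, chr6:137910062-137910121, minus strand: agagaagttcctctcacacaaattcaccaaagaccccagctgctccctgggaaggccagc
Jag2, start 4115, chr6:137909747-137909806, minus strand, opening bases only: tcaggcggaaaacaacggagtattctcgga
Hey1, start 482, chr2:95175974-95176033, plus strand: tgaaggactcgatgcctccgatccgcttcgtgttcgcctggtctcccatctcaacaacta
Hey2, start 1180, chr1:27513964-27514023, plus strand, opening bases only: ccagatctccacagcagcaataaagcgatt
Hey2, start 2284, chr1:27515068-27515127, plus strand, opening bases only: taaacattatgcaaagttatactcataaat

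The letters TGGGAA are the core that RBPJ binds. They were searched on both strands of the 250 bases before the start of 8 of the 10 members, all but Hey1 and Dll4, and of the Notch targets Hes1, Heyl and Nrarp. These windows came from the RefSeq promoters of the rat build GRCr8. Of 33469 such windows, 7387 (22.1%) held the core at least once. Hey2 and Hes1 each held it at 2 places, shown in capitals (TTCCCA is the same core on the other strand). In Hey2 the cores began 175 and 60 bases before the start, and in Hes1 they began 123 and 109 bases before it. Notch4 and Dll1 also held 2 cores, and Heyl, Nrarp, Notch1, Notch2, Notch3, Jag1 and Jag2 held 0, so some targets held the core and others did not. Binding was not measured here, so these matches describe the sequence only.

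Hey2, chr1:28640850-28641099, plus strand: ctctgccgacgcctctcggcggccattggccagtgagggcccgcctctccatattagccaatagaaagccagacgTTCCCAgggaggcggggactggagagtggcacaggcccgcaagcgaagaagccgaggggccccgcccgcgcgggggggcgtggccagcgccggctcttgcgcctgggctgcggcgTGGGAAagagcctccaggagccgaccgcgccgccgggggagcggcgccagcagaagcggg
Hes1, chr11:84213046-84213295, minus strand: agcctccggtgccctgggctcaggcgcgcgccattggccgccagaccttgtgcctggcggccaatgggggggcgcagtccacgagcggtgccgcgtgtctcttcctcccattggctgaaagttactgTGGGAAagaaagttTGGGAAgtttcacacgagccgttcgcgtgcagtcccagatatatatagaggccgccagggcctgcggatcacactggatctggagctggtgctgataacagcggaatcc

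Signals are given as log2 relative to the array's own 75th percentile, so that 0 is a probe at that percentile. They are compared between samples for 1 probe and not between probes, which differ in how well they bind. The exceptions are the choice of a gene's brightest probe and the summed marker levels below. Each sum adds signals of several probes taken off the log2 scale, so it leans on the brightest of them. The arrays lay on 2 slides. Slide 1 held pre-heartbeat replicate 1 with post-heartbeat replicates 1 and 2, and slide 2 held pre-heartbeat replicates 2 and 3 with post-heartbeat replicate 3. The slides stood apart more than the groups did: the first principal component carried 60.2% of the variance and separated the slides, and the second carried 16.6% and separated the groups. The difference of each tested member is therefore given also with slide as a block and within each slide. The tissue carried its label: Myh7 and Tnnt2, genes of the contractile apparatus, were well above background on all 6 arrays.

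No member was called different between the groups. In limma, with Benjamini-Hochberg adjustment over all 19299 tested probes, 0 of the 8 tested members had an adjusted p under 0.05, against 28 of all tested probes (0.145%), and 0 reached an unadjusted p under 0.05 on their brightest probe, against 7.00% of all tested probes. With slide as a block the counts were again 0 of 8 on both, against 1.51% and 9.63%. The study selected genes at least 1.5 fold higher post-heartbeat with an unadjusted p under 0.05 by Tukey's test. Taken in either direction, that selection was met by 0 of 8, against 3.05%. Of the 8, 5 were higher in post-heartbeat primordia and 3 lower, none past the test. Their median difference was 0.12 on the log2 scale and that of all tested probes was -0.03. Their median absolute difference was 0.19, beside 0.17 over all tested probes. The post-heartbeat arrays all lay above the pre-heartbeat arrays for 1 of the 11 tested member probes, against 5.38% of all tested probes, and lay all below for 0. In either direction, groups did not overlap for 11.6% of all tested probes. The 1 member probe with higher post-heartbeat arrays, of Jag2, entered the test only through the post-heartbeat group, where it was the higher. It was not the brightest Jag2 probe, and its unadjusted p in limma was 0.0295, and 0.0331 with slide as a block. Slides did not overlap for 6 of the 11, against 42.4%. The whole primordium was sampled, so fewer cells of a type and less RNA per cell cannot be told apart in any of these values.

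**Figure D1:**
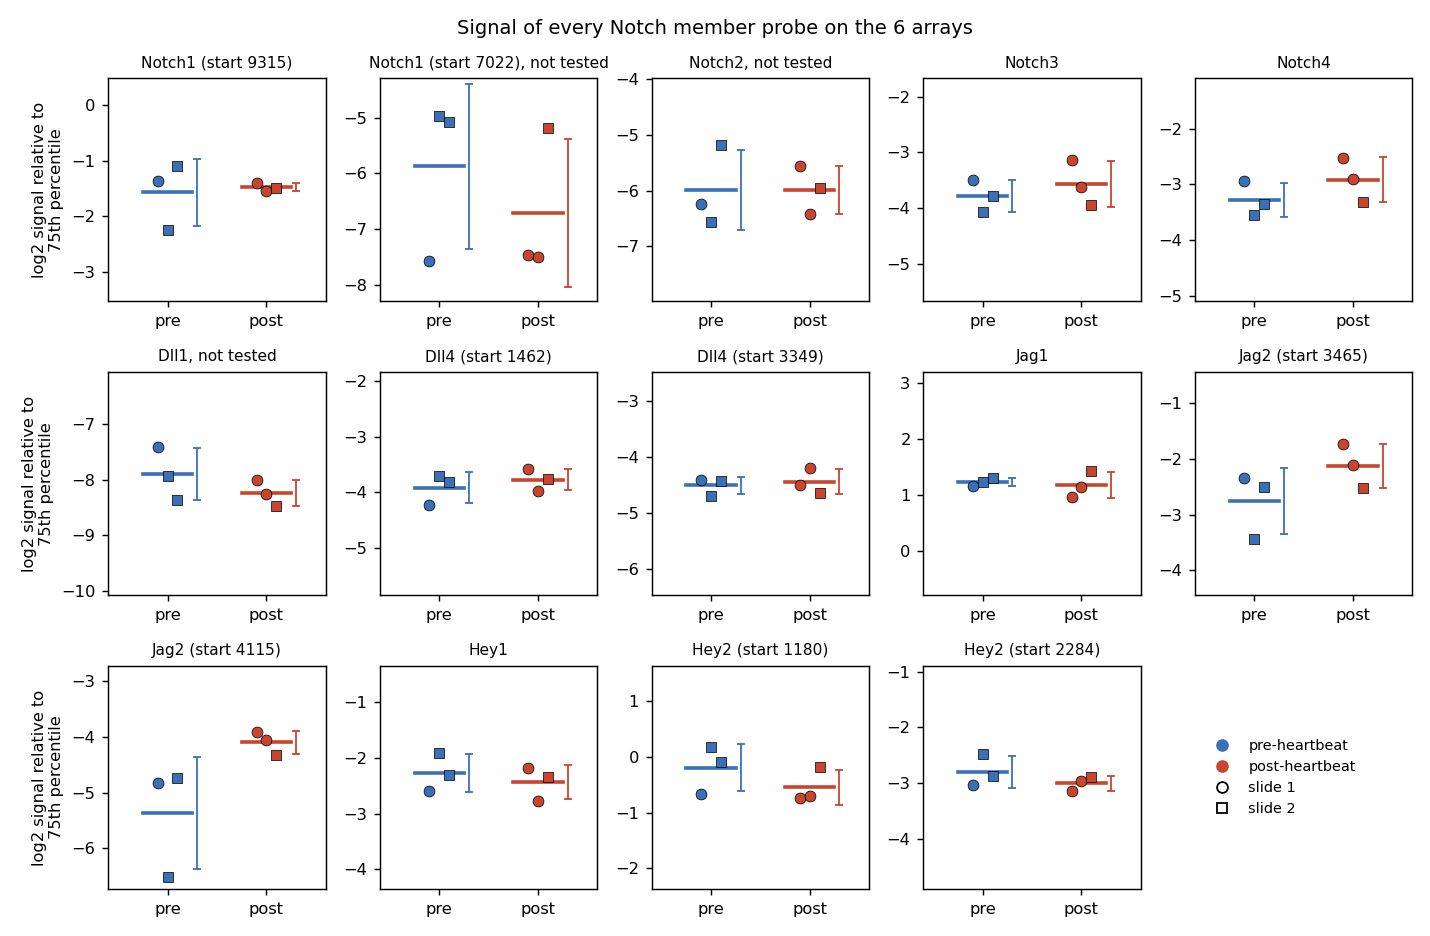
Signal of each of the 14 member probes on the 6 arrays, as log2 relative to the array's 75th percentile, with pre-heartbeat in blue, post-heartbeat in red, circles for slide 1 and squares for slide 2. Thick lines are group means, bars are 1 SD (n = 3), and each panel spans 4 log2 units around its own mean; only Jag2 at start 4115 has groups that do not overlap, and Notch1 at start 7022 splits by slide.

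Notch1, the receptor that endocardial and other endothelial cells use, was measured by 2 probes that behaved differently. On the brighter, at start 9315, the pre-heartbeat arrays read -1.36, -2.25 and -1.10 and the post-heartbeat arrays -1.40, -1.55 and -1.50. The post-heartbeat arrays lay close together inside the wider pre-heartbeat range, and pre-heartbeat replicate 2 was the lowest of all 6. The difference was 0.09 (SE 0.29, 95% interval -0.60 to 0.78, adjusted p = 0.938), and 0.03 with slide as a block. Within slide 1 it was -0.11 and within slide 2 it was 0.18. Without that low array it was -0.25.

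The other Notch1 probe, at start 7022, read -7.58, -4.97 and -5.07 on the pre-heartbeat arrays and -7.46, -7.51 and -5.19 on the post-heartbeat arrays. It was well above background on 3 of 3 arrays of slide 2 and on 0 of 3 of slide 1, so it followed the slide and not the group. This detection pattern was shared by 145 of the 30367 probes (0.477%), and the opposite one by 80 (0.263%). The probe was not tested, since it was not well above background on all 3 arrays of either group, and its 2 spots differed by up to 1.45 on 1 array.

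Notch2, a receptor used by smooth muscle precursors and many other cells, had 1 probe, which was well above background on 2 of 3 arrays of each group. It read -6.23, -6.56 and -5.18 before the heartbeat and -5.57, -6.42 and -5.96 after it. The groups overlapped throughout, and the 2 spots of the probe differed by up to 1.98 on 1 array, so no difference was detectable at this signal.

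Notch3, the receptor of pericytes and vascular smooth muscle, read -3.50, -4.07 and -3.77 on the pre-heartbeat and -3.13, -3.63 and -3.94 on the post-heartbeat arrays. The highest value was post-heartbeat and the lowest pre-heartbeat, with overlap between. The difference was 0.21 (SE 0.25, 95% interval -0.38 to 0.80, adjusted p = 0.864), and 0.05 with slide as a block. Within slide 1 it was 0.12 and within slide 2 it was -0.02.

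Notch4, a receptor largely restricted to endothelium, was measured by 10 spots on each array. It read -2.94, -3.55 and -3.35 on the pre-heartbeat and -2.52, -2.91 and -3.32 on the post-heartbeat arrays. The 2 highest values were both post-heartbeat, and the groups overlapped through post-heartbeat replicate 3. The difference was 0.36 (SE 0.25, 95% interval -0.23 to 0.96, adjusted p = 0.864, two-sided exact permutation p = 0.2, where the smallest possible with 3 against 3 is 0.1). With slide as a block it was 0.18, and within the slides it was 0.23 and 0.13, higher post-heartbeat on both.

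Dll1, the Delta ligand best known from the presomitic mesoderm and the nervous system, was well above background on 0 of 6 arrays. Its probe read -7.42, -7.94 and -8.36 before and -8.01, -8.25 and -8.47 after the heartbeat, and no fold is given for values not above background.

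Dll4, the Delta ligand of arterial endothelium and early endocardium, was detected by both of its probes on all 6 arrays. At start 1462 it read -4.23, -3.71 and -3.81 before the heartbeat and -3.59, -3.97 and -3.75 after it. The lowest value was pre-heartbeat and the highest post-heartbeat, both on slide 1, and the other 4 lay between. The difference was 0.14 (SE 0.19, 95% interval -0.31 to 0.60, adjusted p = 0.864), and 0.23 with slide as a block (SE 0.17, adjusted p = 0.887). Within slide 1 it was 0.45 and within slide 2 it was 0.0091. At start 3349 the difference was 0.06 (SE 0.17, adjusted p = 0.919) and -0.0096 with slide as a block, with 0.06 within slide 1 and -0.08 within slide 2.

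Jag1, the Jagged ligand of endocardium and second heart field, had the smallest standard error of the tested members. It read 1.16, 1.22 and 1.29 on the pre-heartbeat and 0.96, 1.13 and 1.43 on the post-heartbeat arrays. The pre-heartbeat values fell wholly inside the post-heartbeat range. The difference was -0.05 (SE 0.16, adjusted p = 0.936), with a 95% interval that ran from 0.740 to 1.26 fold. With slide as a block it changed sign, to 0.03, and it was -0.11 within slide 1 and 0.17 within slide 2.

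Jag2, a Jagged ligand of epithelia and endothelium, had the largest difference of the tested members on either of its probes. At start 3465, a probe with 1 spot, it read -2.35, -3.44 and -2.50 before the heartbeat and -1.74, -2.12 and -2.53 after it. The 2 post-heartbeat arrays of slide 1 were the highest, and post-heartbeat replicate 3 was just below pre-heartbeat replicate 3. The difference was 0.64 (SE 0.33, 95% interval -0.15 to 1.43, adjusted p = 0.855), and 0.43 with slide as a block (adjusted p = 0.750). Within slide 1 it was 0.42 and within slide 2 it was 0.45.

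At start 4115, Jag2 read -4.83, -6.52 and -4.73 on the pre-heartbeat and -3.91, -4.06 and -4.32 on the post-heartbeat arrays. All 3 post-heartbeat values were above all 3 pre-heartbeat values, and pre-heartbeat replicate 2 was not well above background. The probe was tested only because all 3 post-heartbeat arrays were well above background, so a higher post-heartbeat value was favoured by the filter. The difference was 1.26 (SE 0.46, adjusted p = 0.593 in limma), and 1.08 with slide as a block (adjusted p = 0.427). It was 0.85 within slide 1 and 1.30 within slide 2, the latter with the array that was not well above background. Both Jag2 differences shrank without pre-heartbeat replicate 2, the lowest array on each probe: to 0.69 at start 4115 and to 0.30 at start 3465.

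**Figure D2:**
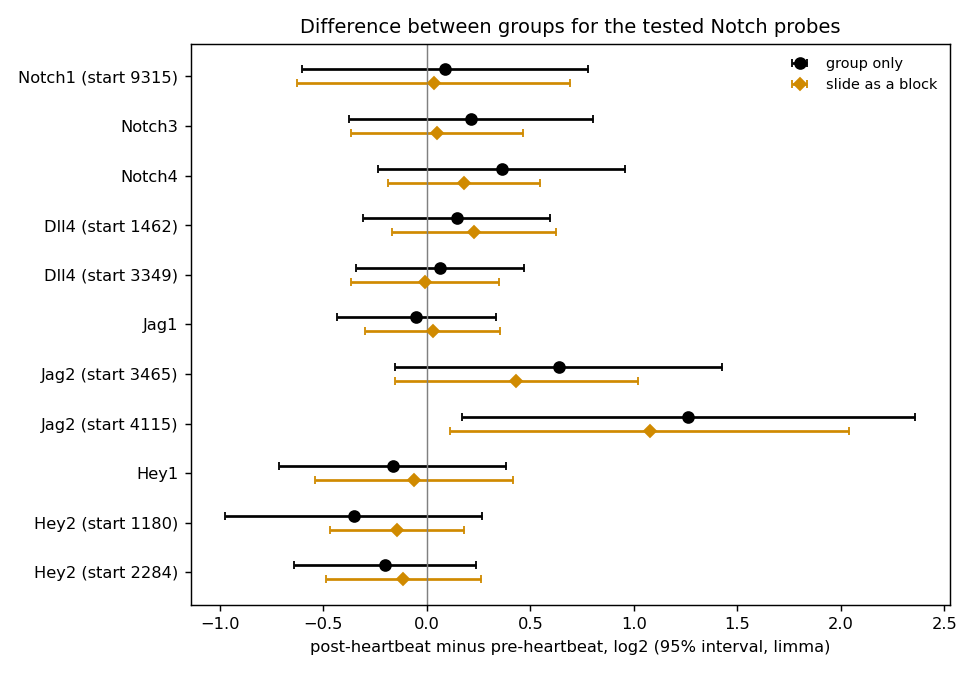
Post-heartbeat minus pre-heartbeat difference (log2) of the 11 tested member probes with its 95% interval from limma, for the fit with group only (black circles) and with slide as a block (orange diamonds). The intervals of all but Jag2 at start 4115 include 0 in both fits. That probe entered the test only through the post-heartbeat group and had an adjusted p of 0.593 and 0.427.

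Hey1, the Hey repressor of atrial muscle and endothelium, read -2.59, -1.92 and -2.31 before the heartbeat and -2.19, -2.77 and -2.34 after it. The highest value was pre-heartbeat and the lowest post-heartbeat, and the other 4 were interleaved. The difference was -0.16 (SE 0.23, 95% interval -0.71 to 0.38, adjusted p = 0.865), and -0.06 with slide as a block. Its sign differed between the slides, at 0.11 within slide 1 and -0.23 within slide 2.

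Hey2, the Hey repressor of ventricular muscle, had 2 probes. At start 1180 it read -0.66, 0.17 and -0.08 on the pre-heartbeat and -0.74, -0.71 and -0.18 on the post-heartbeat arrays. The 3 arrays of slide 2 were the 3 highest, whatever their group. The difference between groups was -0.35 (SE 0.26, 95% interval -0.97 to 0.27, adjusted p = 0.864) and -0.14 with slide as a block, whereas slide 2 exceeded slide 1 by 0.63 (adjusted p = 0.0240). A slide difference passed that threshold for 16.1% of all tested probes. At start 2284 the group difference was -0.20 (SE 0.19, adjusted p = 0.864), and -0.11 with slide as a block. Both probes read lower post-heartbeat on both slides, by small margins: -0.06 and -0.23 at start 1180, and -0.02 and -0.21 at start 2284. The sign was the same within both slides for 6 of the 11 tested member probes, against 50.1% of all tested probes.

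**Figure D3:**
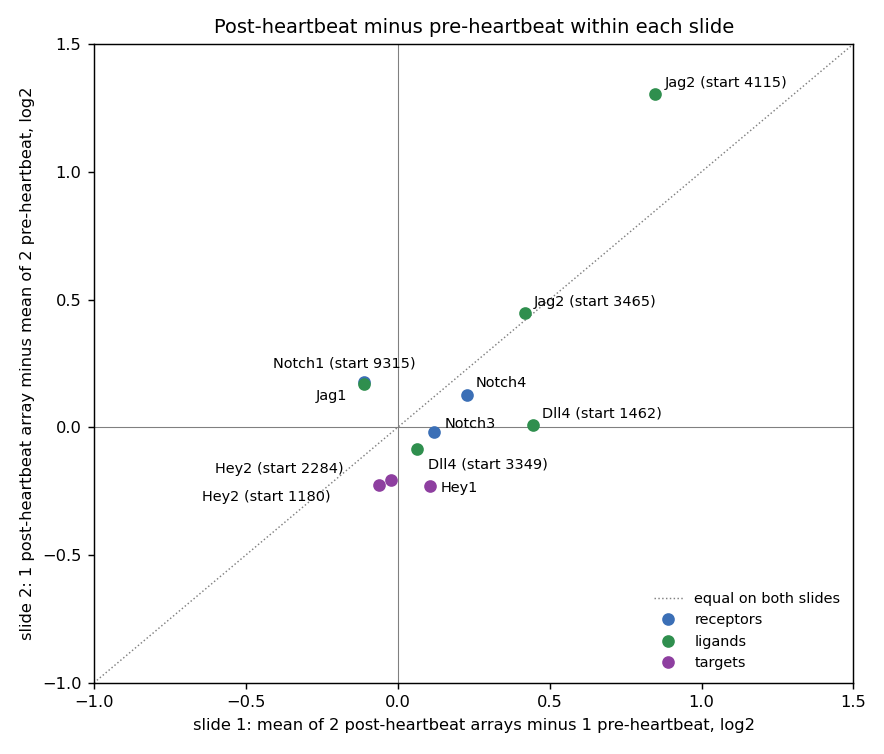
Post-heartbeat minus pre-heartbeat difference (log2) within slide 1 (horizontal) and within slide 2 (vertical) for the 11 tested member probes, coloured by role. The 2 Jag2 probes have the highest values on the slide 2 axis, at 0.45 and 1.30, Dll4 at start 1462 lies at 0.45 on the slide 1 axis but at 0.0091 on the other, and the 2 Hey2 probes lie below 0 on both.

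Around these members, 59 further genes were listed, of which 53 were on the array and 45 were tested. Of the 59, 8 were listed as heart genes linked to Hey factors and not as parts of the pathway. All 8 were tested, and Irx4 and Tbx2 below are among them. Of the 45, 25 were higher and 20 lower post-heartbeat, with a median difference of 0.09, and 0 passed limma (6 at an unadjusted p under 0.05, against 7.00% of all tested probes). With slide as a block, 2 genes rose and 1 fell, against 1.09% and 0.420% of all tested probes called in those directions. Dll3, a Delta-like protein that dampens Notch signalling within the cell and is known from the presomitic mesoderm, read -2.24, -2.19 and -1.75 before the heartbeat and -1.18, -0.80 and -0.81 after it. The groups did not overlap, and the difference was 1.13 (SE 0.19, adjusted p = 0.109) and 1.21 with slide as a block (adjusted p = 0.0239).

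The mesoderm in which Dll3 is known was only partly visible in the tissue. Of 11 paraxial mesoderm markers, 4 were tested and 0 were called. All 4 were higher post-heartbeat, but Tbx6 entered the test only through that group, and Foxc2 turned from 0.29 to -0.23 with slide as a block. The summed level of the 4 ran from 21.7 to 24.2 times the 75th percentile before the heartbeat and from 25.2 to 26.8 after it. That sum is mostly Tcf15 and Pax3. Msgn1, Meox2, Mesp2 and Ripply2 were well above background on 0 of 6 arrays. Tbx6 was well above background on 2 of 3 pre-heartbeat and 3 of 3 post-heartbeat arrays, and Meox1 on 1 of 6. Their part in the Dll3 result was not tested.

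Irx4, a transcription factor of ventricular muscle, read 0.46, -0.20 and 0.43 before the heartbeat and 1.61, 1.67 and 1.29 after it. The groups did not overlap, and the difference was 1.29 (SE 0.22, adjusted p = 0.110) and 1.18 with slide as a block (adjusted p = 0.0288). All 11 tested cardiac muscle markers were higher post-heartbeat too, 0 called in limma and 4 with slide as a block, and their summed level ran from 406.8 to 685.2 before and from 762.4 to 903.7 after the heartbeat. Their part in the Irx4 result was not tested.

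Snai2, the repressor of epithelial adhesion that Notch induces in endocardium, read -3.32, -3.24 and -2.86 before the heartbeat and -4.87, -4.63 and -4.05 after it. The groups did not overlap, and the difference was -1.37 (SE 0.24, adjusted p = 0.117) and -1.21 with slide as a block (adjusted p = 0.0227). Endothelial and endocardial markers stood beside it: 11 of 13 tested were lower post-heartbeat with group only. Of these, Pecam1, Cdh5 and Flt1 turned higher with slide as a block. In limma 0 were called, and with slide as a block 1, Cldn5. Of the 14 markers listed, Nfatc1 was not found on the array. The summed level of the 13 ran from 19.9 to 20.7 before and from 14.98 to 16.00 after the heartbeat. That sum is mostly Kdr, which differed by -0.55 (SE 0.14, adjusted p = 0.283), while Eng (0.68) and Tie1 (0.50) went the other way and the median over the 13 was -0.12. These genes were picked out after their values were seen. The defining markers Cdh5 and Pecam1 were well above background on all 6 arrays and differed by -0.20 (SE 0.34) and -0.08 (SE 0.21), and by 0.10 and 0.06 with slide as a block. The part of endothelial RNA in the values of Snai2, Notch1, Notch4 and Dll4 was not tested. Endothelial markers were not the only ones lower. Of the neural ectoderm markers given below, Otx2 and Hesx1, picked out after their values were seen, differed by -1.56 each. Of the 5 tested on that list, 2 were higher with group only. The part of neural ectoderm in the Snai2 result was not tested either.

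The other genes named by size did not pass either fit. Tbx2, which marks the non-chamber muscle of the atrioventricular canal where Hey factors are absent, differed by 1.46 (SE 0.52, adjusted p = 0.572), with overlapping groups. This was the largest positive difference of the list with group only, but it was 1.07 with slide as a block and 0.90 without pre-heartbeat replicate 2, where Dll3 and Irx4 exceeded it. Snw1, a coactivator in the nuclear Notch complex, had the largest negative difference after Snai2 with group only, at -0.48 (SE 0.23, adjusted p = 0.810), and -0.34 with slide as a block. Rbpj, the DNA-binding protein of the pathway, differed by -0.23 (SE 0.26, adjusted p = 0.864), and by -0.04 with slide as a block.

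Of the other targets beside Snai2, Hes1 differed by 0.20 (SE 0.17, adjusted p = 0.864), and by 0.22 with slide as a block. Nrarp, which feeds back on the receptor complex, differed by 0.15 (SE 0.28, adjusted p = 0.887), and by -0.05 with slide as a block. Hes6 was on the same list, but it opposes Hes1 and is known from differentiating neurons, so it is not read here as a Notch target. Its difference was 0.65 (SE 0.17, adjusted p = 0.297) and 0.60 with slide as a block (adjusted p = 0.166), with groups that did not overlap. Of 10 neural ectoderm markers, 5 were tested, 2 higher and 3 lower post-heartbeat with group only. Of the 2 higher, Zic2 turned from 0.13 to -0.17 with slide as a block. In limma 1, Otx2, was called lower, and with slide as a block 2 were, Otx2 and Hesx1. Of the defining markers, Sox1 was not found on the array and Pax6 was well above background on 1 of 6 arrays. The summed level of the 5 ran from 7.12 to 8.23 before and from 3.102 to 3.793 after the heartbeat, and is mostly Otx2, which differed by -1.56. Their part in the Hes6 and Snai2 results was not tested. Hes5 and Heyl were well above background on 0 of 6 arrays. Groups did not overlap for 6 of the 45 tested genes, against 11.6% of all tested probes.

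**Figure D4:**
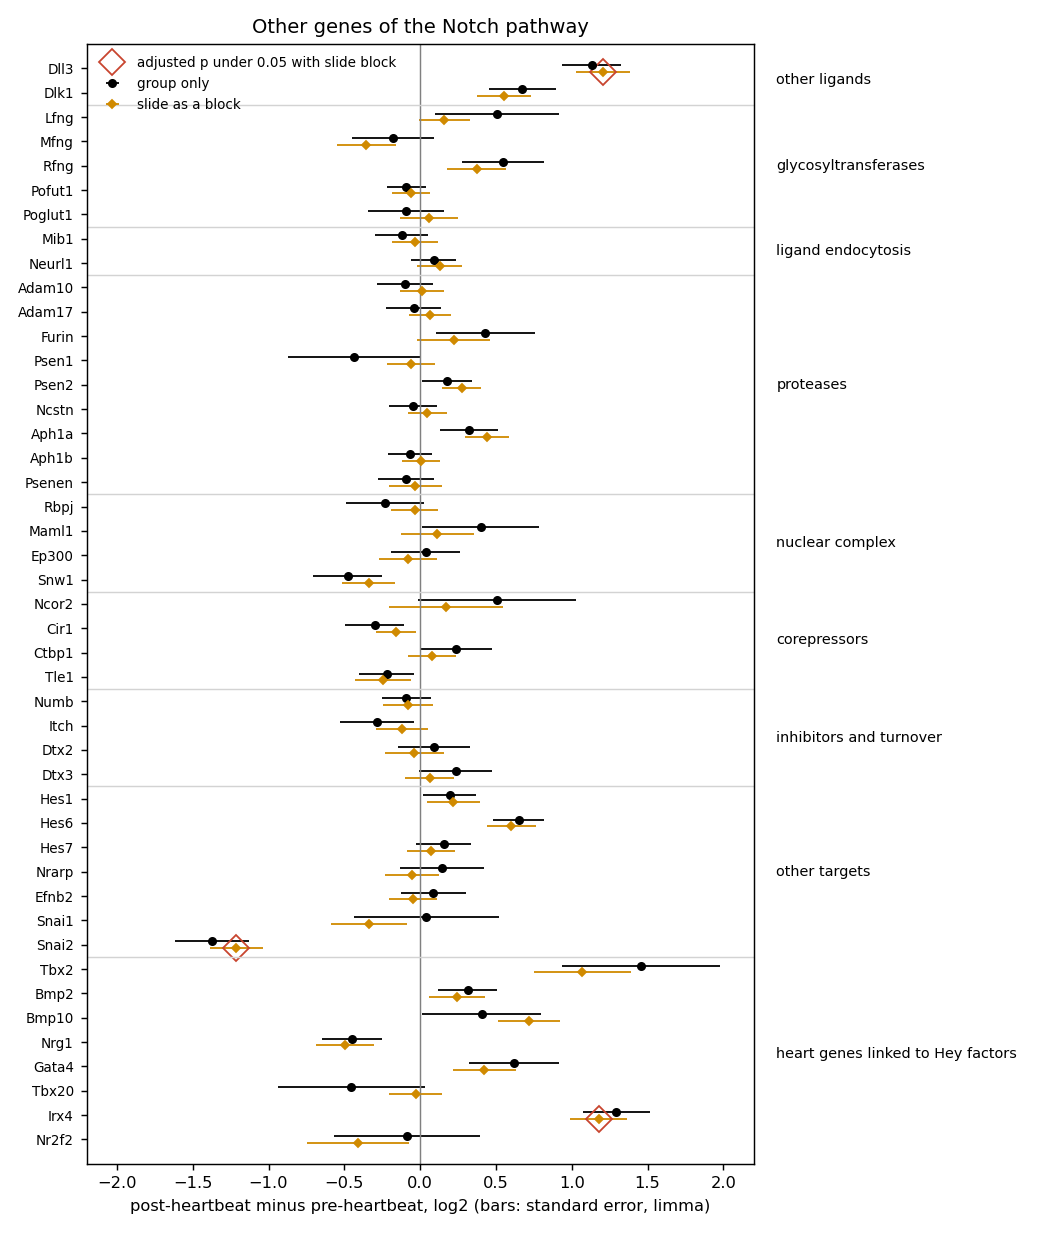
Post-heartbeat minus pre-heartbeat difference (log2) of the 45 tested genes of the wider list, ordered by role, with standard errors from limma, for the fit with group only (black) and with slide as a block (orange). Open red diamonds mark Dll3, Irx4 and Snai2, which had an adjusted p under 0.05 with slide as a block and 0.109, 0.110 and 0.117 without it.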

How the data were processed

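RNA of heart primordia, in 3 pre-heartbeat and 3 post-heartbeat samples, was labelled with Cy3 and hybridised to 1-colour rat arrays by the authors, who scanned them and read the spots with Agilent Feature Extraction 10.7.3.1 (named in the submitters' processing notes). The deposited scanner files give processed intensity per spot, already background-subtracted by that software. The deposited series table gives a ratio per probe, which the authors scaled by each array's 75th percentile and by a baseline per probe, and it was used only as an alternative.

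Control and outlier spots were left out, the intensity was put on a log2 scale, each array's 75th percentile was subtracted, and spots of 1 probe were averaged. A probe was tested if every one of the 3 arrays in either group read it well above background (19299 of 30367 probes), where a probe counts on an array if at least 50% of its spots do. The percentiles ran from 1143 to 1694 intensity units. With 6 arrays, their number limits the precision, and 2 single values were missing among the tested probes. Groups were compared with lmFit and eBayes of limma 3.58.1 in R 4.3.3, with Benjamini-Hochberg adjustment over all tested probes at 0.05. Single probes were also compared by two-sided exact permutation tests. A gene with several probes stands by its brightest tested probe. The group-only limma fit was tried on simulated data with independent noise and no slide effect, so the slide block was not tested that way.

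All 10 members were named, with all probes. Of the wider list the named genes were those past the threshold with or without the slide block and the 2 with the largest difference in each direction. Rbpj, Hes1, Nrarp, Hes6, Hes5 and Heyl were named for their roles after their values were seen, and Dlk1 because it met the methods' selection. The members and lists were chosen with earlier results of these data known. Alternatives were the slide and the replicate number as a block, normexp background, quantile normalization, a percentile over probes detected on all arrays, other filters, the mean of a gene's probes, an intensity trend, the authors' ratios, the methods' test (Tukey's, which with 2 groups is the pooled comparison of means), and leaving out each array.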

Additional observations from a re-analysis of the deposited data

How the results depend on the processing

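Members called stayed at 0 in either direction under every alternative run. The mean of the Jag2 probes, which takes in the one favoured by the filter, differed by 0.95 (SE 0.39, limma unadjusted p = 0.0451, adjusted p = 0.696). Leaving out each array in turn gave differences (log2) of -0.25 to 0.32 for Notch1, -0.0044 to 0.40 for Notch3, 0.16 to 0.56 for Notch4, -0.0106 to 0.246 for Dll4, -0.178 to 0.0545 for Jag1, 0.30 to 0.85 for Jag2, -0.321 to 0.0124 for Hey1 and -0.59 to -0.17 for Hey2. The sign turned without pre-heartbeat replicate 2 for Notch1 (-0.25) and Hey1 (0.0124), without post-heartbeat replicate 1 for Notch3 (-0.0044) and Jag1 (0.0545), without pre-heartbeat replicate 1 for Dll4 (-0.0106), without post-heartbeat replicate 2 for Hey1 (0.0055) and with slide as a block for Jag1 (0.0289). These differences were smaller than their errors in the fit on all arrays.

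Counts over all tested probes moved more: 24 were higher and 4 lower with all arrays, and leaving out each array gave 0 to 1 higher and 0 to 1 lower. The count higher and lower was 211 and 81 with slide as a block and 38 and 7 with an intensity trend. It was 1 and 0 without a filter, and 0 and 0 by the methods' test after Benjamini-Hochberg. The methods' selection, taken in both directions, gave 366 and 223, although the study took higher genes only. The count higher was 43 with normexp background, 11 with quantile normalization and 10 with the authors' ratios. In the wider list, 0 genes were called in limma, and 2 higher and 1 lower with slide as a block. The methods' selection took 4 higher (Dll3, Dlk1, Hes6 and Irx4) and 1 lower (Snai2) of the 45 tested. Its share over all tested probes was 3.05% in either direction. Dlk1, listed among the other ligands, differed by 0.67 (SE 0.22, adjusted p = 0.471 in limma). With the replicate number as a block, 110 probes were higher and 56 lower, and 2 genes of the wider list were higher and 1 lower. Whether the numbers pair the samples cannot be told from these values. Same-numbered arrays deviated together with r = 0.648, -0.277 and 0.494 for numbers 1, 2 and 3. Pre-heartbeat and post-heartbeat arrays on the same slide all correlated positively, and those on different slides, as for number 2, negatively. Post-heartbeat replicate 2 correlated best with pre-heartbeat replicate 1 (r = 0.496), which lay on its slide. The cause of the shifts in the counts was not tested.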

Other observations

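Across the 6 arrays, Notch3 and Notch4 varied together (Pearson r = 0.97) and Hey2 varied against Notch4 (r = -0.94), as descriptions over arrays that share 2 slides. The genes whose values were most like those of Hey1 were Pls3, Apobec3 and Arhgap21 (r = 0.991, 0.990 and 0.989), of 11738 genes compared. Those most like Hey2 were H1f4, Zdhhc21 and Gabpb2 (r = 0.997, 0.996 and 0.996), and those most like Notch1 were Hgs, Ranbp10 and Vax2 (r = 0.993, 0.993 and 0.991). An r over 0.9 with Hey2 was reached by 1087 genes, with Hey1 by 163 and with Notch1 by 146. Hey2 ranked 1906th of the 11738 genes by likeness to Hey1, at r = 0.69.

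Of 10 endoderm markers, 8 were tested and 7 were lower post-heartbeat, 0 called in limma and 2 at an unadjusted p under 0.05. Their summed level, mostly Krt18 and Ttr, was 120.6 to 162.9 before and 104.3 to 119.6 after the heartbeat. Foxa2 was well above background on all 6 arrays and Sox17 on 3 of 6. Of 8 erythroid markers, 4 were tested, 2 higher and 2 lower, 0 were called in limma and 1 had an unadjusted p under 0.05. Their summed level, mostly Hbb, ran from 0.639 to 1.48 before and from 1.68 to 1.91 after the heartbeat. Hbb, picked out after its values were seen, differed by 1.22 (SE 0.35, adjusted p = 0.359), with groups that did not overlap. Gata1 was well above background on 0 of 6 arrays.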
